A study of Homo sapiens with 12 samples.

Results

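The genes described here build and run the lysosome: its membrane and lipid-handling proteins, its hydrolases, the proton pump (V-ATPase) that acidifies it, the transcription factors TFEB and TFE3, and factors of autophagy. They were listed by symbol, with earlier results of these data known. Of the 35 listed genes, 32 were named on the array, each on 1 probe set, of 17687 named genes on 21448 probe sets in all. NPC2, NEU1 and ATP6V0A1 had no named probe set and are not analysed here. The 32 are 5 membrane and lipid-handling genes, 9 hydrolases, 2 transcription factors, 10 pump subunits (4 of the V0 and 6 of the V1 sector) and 6 autophagy factors.

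Expression was measured on 1-colour whole-transcript arrays in 2 EGFR-mutant lung adenocarcinoma cell lines, PC-9 and H1975, in 4 groups of 3 arrays. In each line, 1 group was osimertinib-tolerant cells that were then given the compound SK-216 (a code name) at 100 µM and were alive after 48 h, and the other was osimertinib-tolerant cells, which had survived 0.5 µM osimertinib, which blocks the kinase of the EGF receptor, for 1 week, until day 8. All 4 groups had therefore been selected by osimertinib, and the series as used here holds no cells without it. The source names of the SK-216 samples call the starting cells naive, whereas titles and descriptions have tolerant cells. Whether osimertinib stayed in the medium with SK-216 is not stated. With no tolerant cells of the same later time point, an effect of SK-216 and one of the extra culture time cannot be told apart.

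Lysosomes digest what endocytosis and autophagy deliver to them, with acid hydrolases that need the low pH made by the V-ATPase. This pump has a membrane sector, V0, which passes protons, and a cytosolic sector, V1, which hydrolyses ATP. In autophagy, a membrane grows around cytoplasm, is decorated with proteins of the LC3 and GABARAP families, and fuses with lysosomes. TFEB and TFE3 are known to enter the nucleus when the kinase complex mTORC1 is inactive and to switch on lysosomal and autophagy genes by binding the palindrome TCACGTGA in their promoters, so much of their control acts on the protein and not on the level of their mRNA.

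The palindrome was looked for in the 250 bases before the gene start of RefSeq promoter windows (assembly GRCh38.p14). It reads the same on both strands, so each match counts on both. It was present for 5 of the 22 members that had a window: LAMP1, MCOLN1, CTSA, GAA and ATP6V0D1. Over all genes with a window it was present for 1.04%, and in 0.854% of all windows. The palindrome is already known from promoters of lysosomal and autophagy genes, so its share among these members is no independent result. Its 6-base core CACGTG, which every copy of the palindrome contains, was found for the same 5 and for CTSD and ATP6V0B, 7 of 22, against 7.73% of all genes and 6.34% of all windows. The last 100 bases before the gene start are printed below for the 5 members with the palindrome. Of the members with no copy in the 250 bases searched, NPC1 and GABARAPL1 are printed too. Both differed strongly between the lines, but so did MCOLN1, which has the palindrome. Whether the palindrome goes with the line difference was not tested. Capitals mark the palindrome, and each sequence is written 5′ to 3′ on the strand of its gene.
MCOLN1, chr19:7522524-7522623, plus strand: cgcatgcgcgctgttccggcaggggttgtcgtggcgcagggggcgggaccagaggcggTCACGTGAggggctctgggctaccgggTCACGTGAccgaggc
LAMP1, chr13:113297139-113297238, plus strand: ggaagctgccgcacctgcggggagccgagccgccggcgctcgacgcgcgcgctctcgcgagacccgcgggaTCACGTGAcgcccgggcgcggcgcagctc
CTSA, chr20:45891235-45891334, plus strand: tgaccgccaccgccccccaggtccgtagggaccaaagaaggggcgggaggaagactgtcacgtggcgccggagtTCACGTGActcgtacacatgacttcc
GAA, chr17:80101481-80101580, plus strand: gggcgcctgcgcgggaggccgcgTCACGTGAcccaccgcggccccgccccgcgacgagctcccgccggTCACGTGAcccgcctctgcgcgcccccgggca
ATP6V0D1, chr16:67481158-67481257, minus strand: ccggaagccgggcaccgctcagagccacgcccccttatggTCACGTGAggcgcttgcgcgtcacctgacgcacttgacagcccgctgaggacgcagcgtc
NPC1, chr18:23586507-23586606, minus strand: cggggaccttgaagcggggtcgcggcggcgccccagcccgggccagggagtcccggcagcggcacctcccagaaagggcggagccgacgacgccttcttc
GABARAPL1, chr12:10212777-10212876, plus strand: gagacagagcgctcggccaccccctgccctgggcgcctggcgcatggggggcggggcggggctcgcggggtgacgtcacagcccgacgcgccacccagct
MCOLN1 has copies that begin 42 and 15 bases before the gene start, and GAA has copies at 77 and 32 bases. The single copies begin 29 bases before the start in LAMP1, 26 in CTSA and 60 in ATP6V0D1. A match describes these letters only. No factor's binding was measured.

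The libraries themselves separated by line. Arrays of a group correlated at 0.9934 to 0.9953 across probe sets, arrays of both treatments within a line at 0.9919 to 0.9943, and arrays of different lines at 0.9274 to 0.9323. The keratins and other epithelial markers on the list of 7 had mean log2 signals per array of 13.49 to 13.75 in PC-9 and 11.02 to 11.36 in H1975, and NKX2-1, a lung lineage factor, had no group mean above 5.1. With SK-216 in H1975, 2 of these 7 markers rose and 2 fell, which is 57.1% called against 3.80% of all probe sets. Their means per array were 11.02 to 11.12 with SK-216 and 11.18 to 11.36 in tolerant cells. EPCAM changed by 0.77 there, CDH1, E-cadherin, by -1.55, and COL1A1, the 1 of 4 fibroblast markers called, by -0.96. Their part in the results below was not tested. Olfactory receptor genes, 349 probe sets with a median of 3.61, serve to describe the signal of unexpressed genes, and their 95th percentile, 5.05, is called the olfactory mark below. Changes are log2 differences ± standard error of a fit over all 12 arrays with limma, and a gene was called when its Benjamini-Hochberg adjusted p, taken over the whole array, was below 0.05. Separate cultures are not stated for the replicates, so the p-values rest on a spread between arrays that may be only technical. In bulk RNA, fewer cells of a kind and less RNA per cell cannot be told apart.

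After SK-216, few of these genes were called in either line, 3.12% in PC-9 and 9.38% in H1975. In PC-9, 1 of 32 was called, GALC, which fell, against 0.443% of all probe sets (0.0699% fell and 0.373% rose) and 0.638% of those above the olfactory mark in at least 1 group. Over all probe sets in PC-9, 80 rose and 15 fell, and 51 and 18 after quantile normalization. In H1975, 2 rose, the pump subunits ATP6V0D2 and ATP6V1A, and 1 fell, the protease CTSB, against 3.80% of all probe sets (1.44% rose and 2.35% fell) and 5.37% of those above the mark. Without SK-216 H1975 array 3, the H1975 count was 5, and without any 1 of 5 arrays, named with GALC below, the PC-9 count was 0. The median change of the 32 was 0.07 in PC-9 and -0.03 in H1975, where the medians of all probe sets were -0.0033 and 0.01. The median size of the changes, without sign, was 0.108 in PC-9 and 0.165 in H1975, against 0.15 and 0.157 over all probe sets. The 3 arrays of each group did not overlap for 11 of the 32 in PC-9 (15.0% of all probe sets) and for 12 in H1975 (18.5%). By limma at an unadjusted p below 0.05, 5 of the 32 were higher and 1 lower in PC-9 (6.39% and 4.53% of all probe sets). In H1975, 5 were higher and 7 lower (6.33% and 7.87%).

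**Figure D1:**
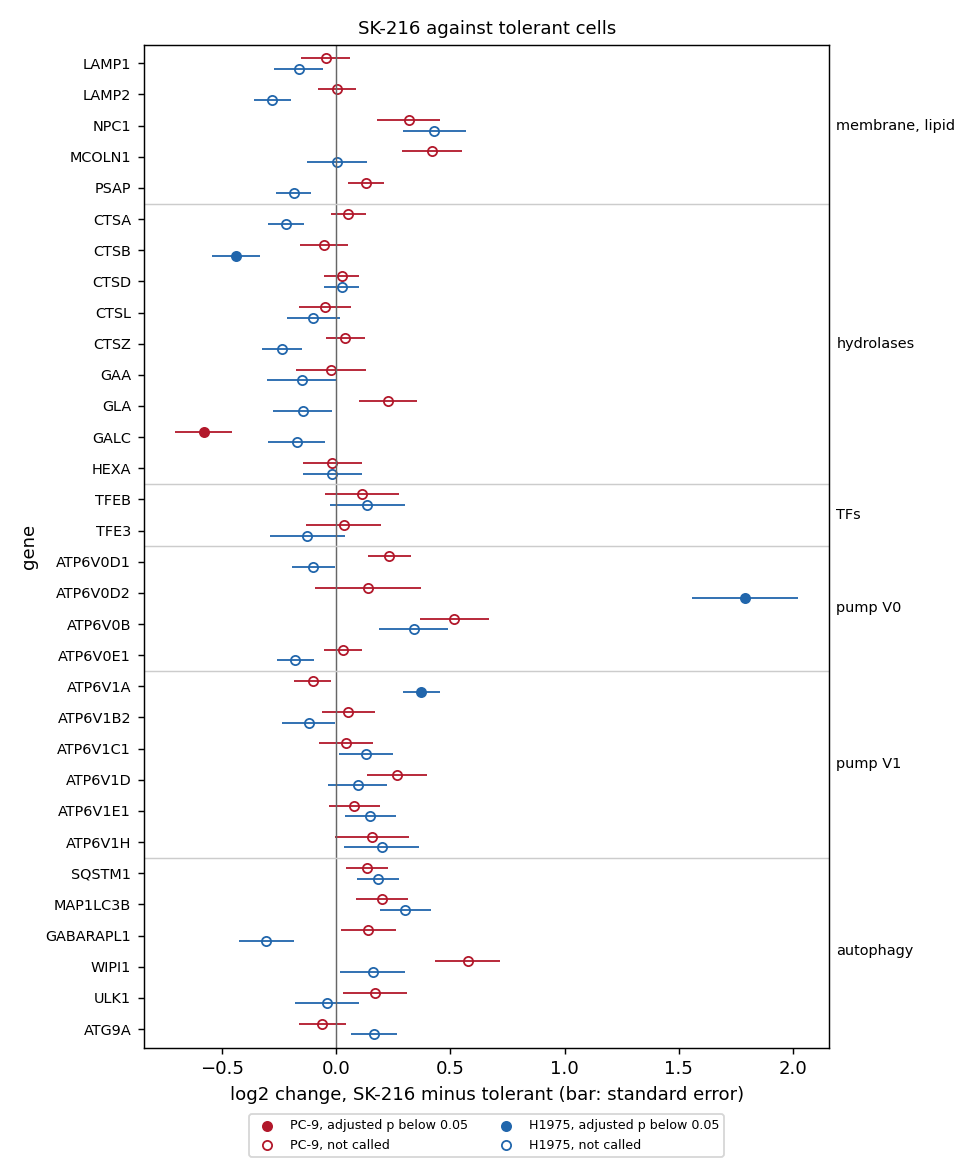
Log2 change with SK-216 (SK-216 minus tolerant, horizontal axis, bars are standard errors, 3 arrays per group) of the 32 genes (vertical axis, by class), with filled points where the adjusted p was below 0.05. ATP6V0D2 in H1975, at a fitted 1.79, stands farthest from 0, and GALC at -0.58 is the called gene in PC-9.

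The proton pump held the largest change. ATP6V0D2, the d2 isoform of a V0 subunit that links the proton channel to the rotor of the pump and is best known from osteoclasts and kidney, had log2 signals of 6.86, 6.59 and 6.55 in H1975 with SK-216, against 4.61, 5.14 and 4.88 in tolerant H1975. The groups lay far apart, and the tolerant mean, 4.88, was below the olfactory mark. With each tolerant array taken at no less than that mark, the signal was at least 3.00-fold higher with SK-216, or 1.59 on the log2 scale. The fitted change was 1.79 ± 0.23 (adjusted p = 2.4e-05), and it stayed past the threshold whichever of the 12 arrays was omitted.

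In PC-9, ATP6V0D2 had 4.12, 4.87 and 4.15 with SK-216 and 4.44, 4.27 and 4.01 in tolerant cells, so all 6 arrays were below the olfactory mark and the groups overlapped. The change there was 0.14 ± 0.23 (adjusted p = 0.881). The fitted PC-9 change minus the H1975 change was -1.65 ± 0.33 (adjusted p = 0.0083), but 3 of the 4 group means in it lie below the mark, so its size is not a measured one. Osteoclasts and macrophages also carry this subunit. The samples here were lung adenocarcinoma cell lines, and whether any other cells added to the signal was not tested. Of the 8 measured macrophage and osteoclast markers none was called with SK-216 in H1975, where 3.80% of all probe sets were. By limma at an unadjusted p below 0.05, 1 fell (7.87% of all probe sets). ACP5, also listed, had no named probe set. At or below the olfactory mark in both H1975 groups were 4 of the 8. The log2 of their summed signal was 8.38 to 8.79 with SK-216 and 8.58 to 8.72 in tolerant cells. The marker that moved most was CD14, a monocyte and macrophage co-receptor, with 6.16, 5.96 and 5.93 with SK-216 and 6.69, 6.92 and 6.65 in tolerant H1975, which did not overlap (-0.74 ± 0.21, adjusted p = 0.0508). The other 7 had changes of -0.10 to 0.30.

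ATP6V1A, the subunit that carries the catalytic sites for ATP in V1, had log2 signals of 12.67, 12.73 and 12.71 in H1975 with SK-216, against 12.32, 12.35 and 12.32 in tolerant H1975. These values scarcely varied within a group, and the groups were well separated. The change of 0.37 ± 0.08 (adjusted p = 0.00754) is a 1.30-fold higher signal and passed the threshold in all 12 fits without 1 array. A fit with no variance trend gave an adjusted p of 0.109.

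In PC-9, ATP6V1A had 13.58, 13.55 and 13.58 with SK-216 and 13.67, 13.68 and 13.67 in tolerant cells. The SK-216 arrays lay below the tolerant ones without overlap, yet the change of -0.10 ± 0.08 was not called (adjusted p = 0.697). The difference between the lines' changes, -0.48 ± 0.12, was called (adjusted p = 0.0334), but it missed the threshold in 11 of the 12 fits without 1 array, in all but the one without tolerant PC-9 array 1 (adjusted p between 0.0544 and 0.0847 in those 11), and without the variance trend (adjusted p = 0.222). With ATP6V0D2 it made 2 members called in that comparison, against 1.42% of all probe sets and 2.04% of those above the olfactory mark (1.09% were higher in PC-9 and 0.331% lower, as both of these were). Over all probe sets 233 were higher and 71 lower in that comparison, and 199 and 107 after quantile normalization.

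The other 8 pump subunits were not called with SK-216 in either line. Over all 10 subunits the median change was 0.11 in PC-9, where 9 were above 0, and 0.14 in H1975, where 7 were. Another 17 pump subunits and assembly factors, among the further pathway genes read below, went the other way in H1975. There 5 of the 17 were above 0 and 12 below, with a median of -0.097. In PC-9, 13 of the 17 were above 0 and 4 below, with a median of 0.067. None of the 17 was called with SK-216 in either line. Of all 21448 probe sets, 10599 were above 0 in PC-9 and 11001 in H1975. ATP6V0B, part of the proton-carrying ring, had the largest change of the 10 in PC-9, 0.52 ± 0.15 (adjusted p = 0.168).

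Hydrolases gave 1 call per line, both decreases. CTSB, cathepsin B, a cysteine protease, had log2 signals of 14.08, 14.11 and 14.29 in H1975 with SK-216, against 14.37, 14.56 and 14.87 in tolerant H1975. The groups were close but did not overlap, and tolerant array 3 was the highest. The change was -0.44 ± 0.10 (adjusted p = 0.0149). It was no longer called without tolerant H1975 array 3 (adjusted p = 0.125), SK-216 H1975 array 1 (0.0847) or SK-216 H1975 array 2 (0.06), nor without the variance trend (0.185).

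In PC-9, CTSB had 14.07, 13.97 and 13.93 with SK-216 and 14.19, 14.03 and 13.91 in tolerant cells, which overlapped (change -0.05 ± 0.10, adjusted p = 0.899). The difference between the changes of the lines, 0.39 ± 0.15, was not called (adjusted p = 0.246).

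GALC, galactosylceramidase, which breaks down galactolipids of myelin, had 9.48, 9.16 and 9.24 in PC-9 with SK-216, against 9.73, 10.13 and 9.76 in tolerant PC-9. All 3 SK-216 arrays were lower than all 3 tolerant ones. The change was -0.58 ± 0.13 (adjusted p = 0.033), and it was no longer called without SK-216 PC-9 array 2 (0.221), tolerant PC-9 array 2 (0.14), SK-216 PC-9 array 3 (0.12), tolerant PC-9 array 3 (0.0631) or tolerant H1975 array 1 (0.0528). It was also lost without the variance trend (0.204) and with each line fitted alone (0.154).

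In H1975, GALC had 12.81, 12.69 and 12.58 with SK-216 and 12.82, 12.95 and 12.83 in tolerant cells, a change of -0.17 ± 0.13 (adjusted p = 0.607). The changes of the lines differed by -0.41 ± 0.18 (adjusted p = 0.333), which was not called. So the decrease of GALC passed the threshold in PC-9 and not in H1975, but the test of the difference did not separate the lines.

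Of the 9 hydrolases, 8 had a change below 0 in H1975, with a median of -0.15, and 5 in PC-9, with a median of -0.02. Of all 21448 probe sets, 10300 had a change below 0 in H1975 and 10736 in PC-9. The other 7, which include the proteases CTSA, CTSD, CTSL and CTSZ, GAA, which digests glycogen, GLA, which digests globotriaosylceramide, and HEXA, a subunit of the enzyme that digests GM2 ganglioside, were not called in either line.

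**Figure D2:**
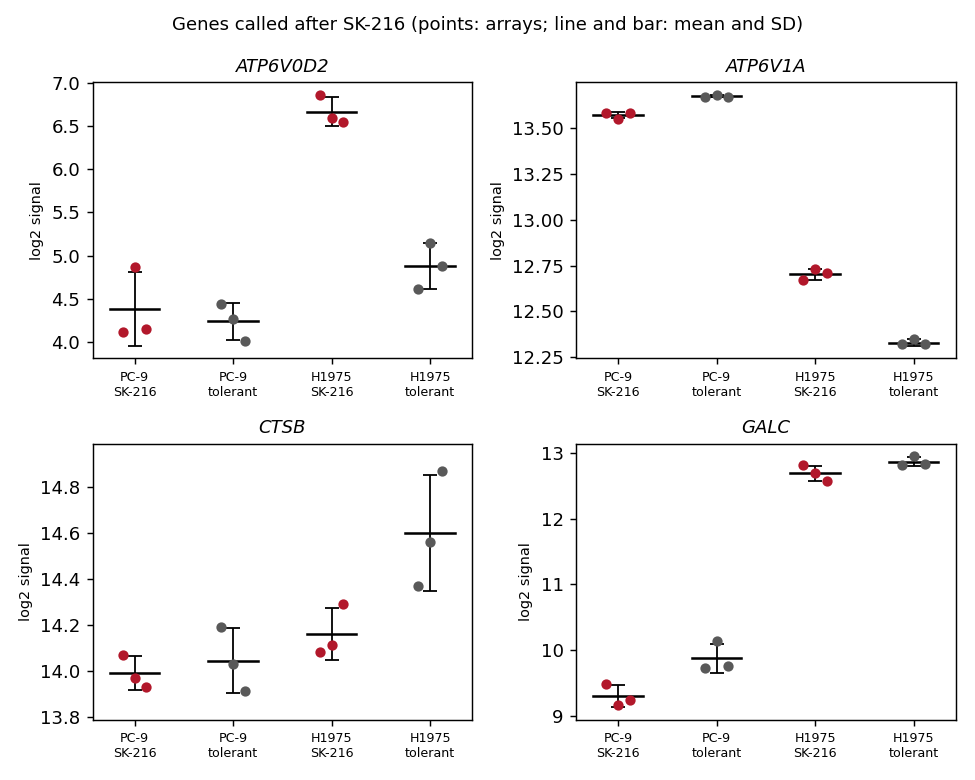
Log2 signal (vertical axis) on each array (points) in the 4 groups (horizontal axis), with the mean and SD of 3 arrays, for the genes called with SK-216. In H1975, ATP6V0D2 and ATP6V1A were higher and CTSB lower with SK-216 than in tolerant cells, and GALC was lower with SK-216 in PC-9.

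The transcription factors were not called with SK-216. TFEB had 2.64, 2.78 and 3.02 in PC-9 with SK-216 and 2.66, 2.77 and 2.67 in tolerant PC-9, and 3.06, 3.27 and 2.92 in H1975 with SK-216 and 3.08, 2.84 and 2.92 in tolerant H1975. All 12 values were below the olfactory mark, and TFEB was the only member at or below it in all 4 groups, so its changes of 0.11 ± 0.16 in PC-9 and 0.14 ± 0.16 in H1975 describe signal at the level of unexpressed genes.

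TFE3 was measured well above the mark. It had 8.54, 8.40 and 8.61 in PC-9 with SK-216 and 8.77, 8.35 and 8.33 in tolerant PC-9, and 9.15, 9.46 and 9.01 in H1975 with SK-216 and 9.17, 9.46 and 9.37 in tolerant H1975. The SK-216 and tolerant arrays overlapped in both lines, with changes of 0.03 ± 0.16 (adjusted p = 0.964) in PC-9 and -0.13 ± 0.16 (adjusted p = 0.819) in H1975.

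No autophagy factor was called with SK-216 in either line by limma: at an unadjusted p below 0.05, 1 of the 6 was higher in PC-9 (6.39% of all probe sets), and 1 was higher (6.33%) and 1 lower (7.87%) in H1975. SQSTM1, p62, the receptor that carries ubiquitinated cargo into autophagosomes and is itself degraded with it, had 15.65, 15.77 and 15.62 in PC-9 with SK-216 and 15.54, 15.49 and 15.60 in tolerant PC-9. In H1975 it had 13.87, 14.08 and 14.29 with SK-216 and 13.91, 13.77 and 14.01 in tolerant cells. The PC-9 arrays did not overlap and the H1975 arrays did, but the changes were alike in size, 0.14 ± 0.09 (adjusted p = 0.631) and 0.18 ± 0.09 (adjusted p = 0.376).

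WIPI1, which binds the lipid PI3P on the growing membrane, had the largest uncalled change of the 32 genes in PC-9, 0.58 ± 0.14, with no overlap between the arrays (adjusted p = 0.0802). In H1975 it changed by 0.16 ± 0.14. GABARAPL1, a GABARAP family protein whose probe set may share signal with the near-identical GABARAPL3, changed by -0.31 ± 0.12 in H1975 (adjusted p = 0.201) and was called there in 1 of the 12 fits, the one without SK-216 H1975 array 3 (adjusted p = 0.00667), its highest array of that group.

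Membrane and lipid-handling genes gave no call with SK-216. By limma at an unadjusted p below 0.05, 2 of the 5 were higher in PC-9 (6.39% of all probe sets), and 1 was higher (6.33%) and 2 lower (7.87%) in H1975. LAMP1, a glycoprotein that coats the inner face of the lysosomal membrane, had 12.03, 11.96 and 12.16 in PC-9 with SK-216 and 12.04, 11.95 and 12.30 in tolerant PC-9, and 11.57, 11.67 and 11.53 in H1975 with SK-216 and 11.78, 11.76 and 11.72 in tolerant H1975. It overlapped in PC-9 (-0.05 ± 0.11, adjusted p = 0.916) and lay slightly lower without overlap in H1975 (-0.16 ± 0.11, adjusted p = 0.552). Its relative LAMP2 came closer to a call in H1975, with a change of -0.28 ± 0.08 (adjusted p = 0.0559).

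The lines themselves differed far more than their SK-216 and tolerant groups. Between tolerant PC-9 and tolerant H1975, 26 of the 32 genes were called, 9 higher and 17 lower in PC-9, which is 81.2% against 44.0% of all probe sets (21.3% higher and 22.7% lower). Of the 17, ATP6V0D2 was below the olfactory mark in both lines, and without it 25 were called, 9 higher and 16 lower. Among probe sets above the olfactory mark in at least 1 group the background was 60.9%, and 31 of the 32 genes were above it. The median size of the difference, without sign, was 0.87, against 0.37 over all probe sets, and the arrays did not overlap for 30 of the 32 (50.2% of all probe sets). For 28 of the 32, the larger of the SK-216 changes of both lines was smaller in size than this line difference.

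The line difference ran in both directions within each class other than the transcription factors. The listed hydrolases were mostly lower in PC-9 (1 higher, 5 lower, median -0.56). The 33 further lysosomal enzymes, read below, did not lean this way (12 higher, 13 lower, median -0.017). Pump subunits were divided (4 higher, 5 lower or 4 without ATP6V0D2, median -0.19), and so were autophagy factors (3 higher, 3 lower, median 0.34). Of the membrane and lipid-handling genes, 1 was higher and 3 were lower, with a median of -0.28. Over all probe sets, 21.3% were called higher and 22.7% lower, and the median was 0.02.

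GALC had the largest line difference. Its tolerant PC-9 arrays, given above, lay about 3 log2 units below its tolerant H1975 arrays, a difference of -2.99 ± 0.13 (adjusted p = 6.54e-16), which puts the PC-9 signal at 0.126 of that in H1975. In SK-216 cells the difference was -3.40 ± 0.13.

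MCOLN1, mucolipin 1, a channel that releases calcium from lysosomes, had 10.07, 10.27 and 10.06 in PC-9 with SK-216, 9.99, 9.52 and 9.63 in tolerant PC-9, 11.74, 11.81 and 11.84 in H1975 with SK-216, and 11.66, 11.76 and 11.96 in tolerant H1975. Every PC-9 array was below every H1975 array. The tolerant cells differed by -2.08 ± 0.13 (adjusted p = 1.41e-12), and the SK-216 changes were 0.42 ± 0.13 in PC-9 (adjusted p = 0.195) and 0.0033 ± 0.13 in H1975 (adjusted p = 0.996).

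NPC1, which moves cholesterol out of the lysosome, had 9.48, 9.46 and 9.29 in PC-9 with SK-216, 8.87, 9.21 and 9.20 in tolerant PC-9, 11.21, 11.12 and 11.31 in H1975 with SK-216, and 10.96, 10.54 and 10.85 in tolerant H1975. The lines did not overlap, with a difference of -1.69 ± 0.14 in tolerant cells (adjusted p = 2.25e-10). In both lines all SK-216 arrays were above all tolerant ones, but neither change was called: 0.32 ± 0.14 in PC-9 (adjusted p = 0.4) and 0.43 ± 0.14 in H1975 (adjusted p = 0.0964).

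GABARAPL1 was the member highest in PC-9 relative to H1975. It had 15.69, 15.50 and 15.64 in PC-9 with SK-216, 15.63, 15.34 and 15.44 in tolerant PC-9, 12.54, 12.29 and 12.98 in H1975 with SK-216, and 12.91, 12.98 and 12.84 in tolerant H1975. The lines were more than 2 log2 units apart on every array, and tolerant cells differed by 2.56 ± 0.12, a 5.90-fold higher signal in PC-9 (adjusted p = 5.69e-15). MAP1LC3B, LC3B, which is lipidated on the same membranes and whose probe set may share signal with the near-identical MAP1LC3B2, differed the other way, by -1.12 ± 0.11.

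SQSTM1 was higher in tolerant PC-9 by 1.65 ± 0.09 (adjusted p = 1.66e-13). ULK1, the kinase that starts autophagosome formation, was higher by 1.05, while WIPI1 was lower by 1.14 and ATG9A, a membrane protein that seeds the autophagosome, was lower by 0.37 on the log2 scale. So all 6 autophagy factors were called between the lines, 3 in each direction. Of all probe sets 44.0% were called there, and of those above the olfactory mark in at least 1 group 60.9%.

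In the pump, subunits of the same sector differed in opposite directions between the lines. ATP6V1C1, which joins the V1 and V0 sectors, had 12.14, 12.26 and 12.04 in PC-9 with SK-216, 12.34, 11.94 and 12.03 in tolerant PC-9, 10.82, 10.86 and 10.68 in H1975 with SK-216, and 10.74, 10.58 and 10.65 in tolerant H1975. All PC-9 arrays were above all H1975 arrays, with a tolerant difference of 1.45 ± 0.12 (adjusted p = 1.74e-10), and ATP6V1A was higher in tolerant PC-9 by 1.34 ± 0.08 (adjusted p = 8.51e-13). ATP6V1B2, the B subunit that forms the V1 head together with the A subunit, differed by -1.18, and ATP6V1D, part of the rotor, by -0.56.

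In V0, ATP6V0B was higher in tolerant PC-9 by 0.96, and ATP6V0D1, the widely expressed isoform of the d subunit, differed by -0.32. The fit gave -0.64 ± 0.23 for ATP6V0D2 in tolerant cells (adjusted p = 0.0287), but both group means lie below the olfactory mark, so this is a difference between signals at the level of unexpressed genes. That call was lost without tolerant H1975 array 2 (0.137), tolerant PC-9 array 3 (0.121), tolerant H1975 array 3 (0.064) or tolerant PC-9 array 2 (0.0534). In SK-216 cells, where PC-9 alone was below the mark, the fitted difference was -2.29 ± 0.23.

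TFE3 was lower in tolerant PC-9 by 0.85 ± 0.16 on the log2 scale (adjusted p = 0.000117), and LAMP1 was higher by 0.34 ± 0.11 (adjusted p = 0.0107), a call lost without tolerant PC-9 array 3 (adjusted p = 0.0994). Among hydrolases, HEXA was higher in PC-9 by 1.19, and CTSD differed by -1.12, CTSL by -0.92, CTSA by -0.89 and CTSB by -0.56. LAMP2, CTSZ, GAA, GLA, TFEB and ATP6V0E1 were not called.

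**Figure D3:**
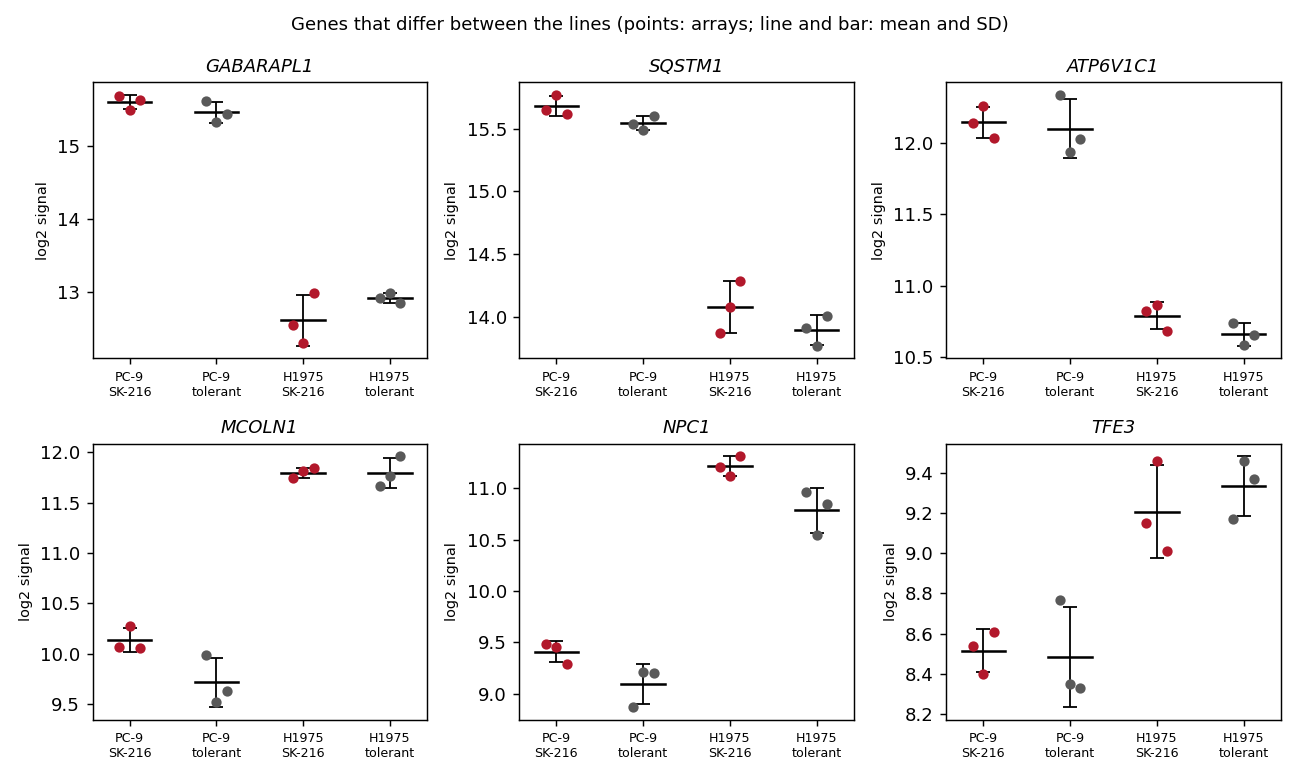
Log2 signal (vertical axis) on each array (points) in the 4 groups (horizontal axis), with the mean and SD of 3 arrays. GABARAPL1, SQSTM1 and ATP6V1C1 were higher in PC-9 than in H1975 on every array, and MCOLN1, NPC1 and TFE3 were lower.

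The same comparison among SK-216 arrays, added after the data were examined, called 23 of the 32 genes, 9 higher and 14 lower in PC-9 (43.9% of all probe sets, 21.6% higher and 22.2% lower, and 60.8% of those above the olfactory mark). Of the calls, 22 were shared with the same sign, which is 84.6% of the tolerant calls and 95.7% of the SK-216 calls, and 27 of 32 genes had the same sign in both. CTSB was called between the tolerant groups and not between the SK-216 groups, where its difference was -0.17 (adjusted p = 0.213).

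**Figure D4:**
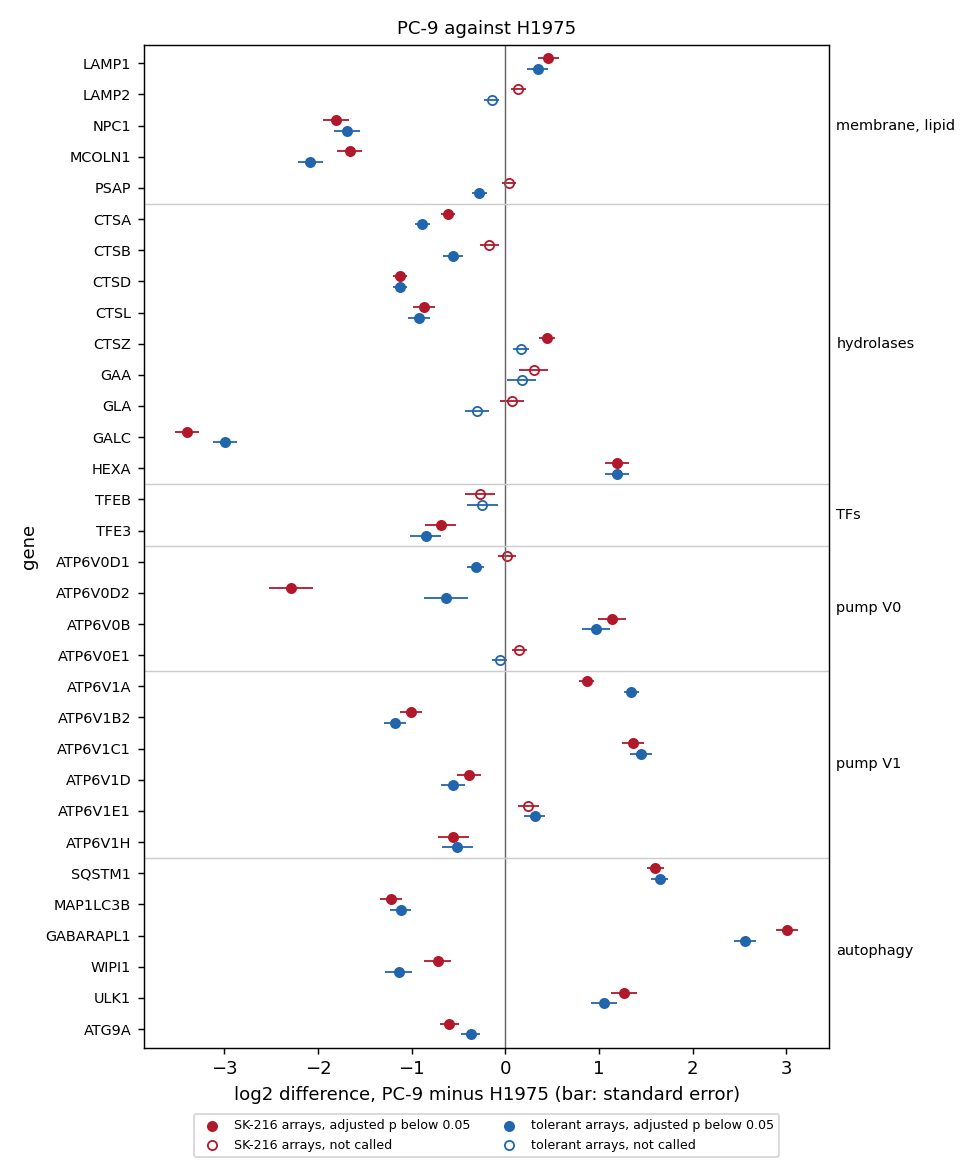
Log2 difference between the lines (PC-9 minus H1975, horizontal axis, bars are standard errors, 3 arrays per group) of the 32 genes (vertical axis, by class) among SK-216 arrays and among tolerant arrays, with filled points where the adjusted p was below 0.05. GALC lies lowest, at -3.40 and -2.99, and GABARAPL1 highest, at 3.01 and 2.56.

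The wider pathway was read from 142 further genes named on the array, of 158 listed. In PC-9, 0 of the 142 were called with SK-216 by limma (0.443% of all probe sets). At an unadjusted p below 0.05, 9 were higher and 2 lower, where 6.39% and 4.53% of all probe sets were. In H1975, 3 rose and 3 fell, 4.23%, close to the 3.80% of all probe sets. At an unadjusted p below 0.05, 4 were higher and 19 lower there, where 6.33% and 7.87% of all probe sets were. The H1975 change was above 0 for 59 of the 142 and below 0 for 83, with a median of -0.08 (0.01 over all probe sets). Between the tolerant lines 95 were called, 41 higher and 54 lower in PC-9, which is 66.9%, against 44.0% of all probe sets and 60.9% of those above the olfactory mark.

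The called decreases in H1975 were in lysosomal enzymes and a membrane channel. CTSO, cathepsin O, a cysteine protease, had 10.20, 10.48 and 10.13 in H1975 with SK-216, against 11.37, 11.52 and 11.54 in tolerant H1975, and 11.66, 11.49 and 11.41 in PC-9 with SK-216, against 11.28, 11.64 and 11.41 in tolerant PC-9. It stood apart in SK-216 H1975 and overlapped in PC-9. The change was -1.21 ± 0.12 in H1975 (adjusted p = 1.03e-06) and 0.08 ± 0.12 in PC-9, a difference of 1.28 ± 0.18 (adjusted p = 0.00016).

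CTSS, cathepsin S, a protease known for trimming the invariant chain in antigen presentation, had 7.96, 7.85 and 7.68 in H1975 with SK-216, against 8.62, 8.83 and 8.99 in tolerant H1975. In PC-9 it had 10.30, 10.48 and 10.20 with SK-216, against 9.93, 10.08 and 10.14 in tolerant cells. The arrays did not overlap in either line and lay in opposite order: the change was -0.98 ± 0.15 in H1975 (adjusted p = 0.000142) and 0.28 ± 0.15 in PC-9 (not called), a difference of 1.26 ± 0.21 (adjusted p = 0.00132).

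TPCN1, an ion channel of endosomes and lysosomes, had 12.62, 12.67 and 12.85 in H1975 with SK-216, against 13.17, 13.28 and 13.13 in tolerant H1975, a change of -0.48 ± 0.13 (adjusted p = 0.0329). All SK-216 arrays were lower, but the call was lost in 5 of the 12 fits without 1 array, those without any tolerant H1975 array, SK-216 H1975 array 1 or SK-216 H1975 array 2 (adjusted p up to 0.146), and without the variance trend (0.201). Of the 33 further lysosomal enzymes, 24 had a change below 0 in H1975, which is 72.7% against 48.0% of all probe sets, with a median of -0.22. The 2 called, CTSO and CTSS, are 6.06%, against 3.80% of all probe sets and 5.37% of those above the olfactory mark. In PC-9 their median was 0.05.

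The called increases in H1975 were in a nutrient-sensing GTPase and autophagy factors. RRAGD, a Rag GTPase that brings mTORC1 to the lysosome, had 8.25, 8.41 and 8.44 in H1975 with SK-216, against 7.04, 7.22 and 7.54 in tolerant H1975, and 7.03, 6.74 and 6.61 in PC-9 with SK-216, against 6.31, 6.93 and 6.32 in tolerant PC-9. It was clearly separated in H1975 and overlapped in PC-9. The change was 1.10 ± 0.21 in H1975 (adjusted p = 0.0018), called in all 12 fits without 1 array, and 0.27 ± 0.21 in PC-9 (adjusted p = 0.679). The difference of -0.83 ± 0.29 was not called (adjusted p = 0.192).

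WDR45B, a PI3P-binding relative of WIPI1, had 11.31, 11.07 and 11.28 in H1975 with SK-216, against 10.79, 10.78 and 10.84 in tolerant H1975 (0.42 ± 0.11, adjusted p = 0.0405). BNIP3, a receptor for the removal of mitochondria by autophagy, had 13.38, 13.59 and 13.24 with SK-216, against 13.00, 12.82 and 13.17 in tolerant H1975 (0.41 ± 0.11, adjusted p = 0.0437). Neither gene overlapped between the groups, but both lay near the threshold: the call of WDR45B was lost in 6 of the 12 fits without 1 array (without any tolerant H1975 array, SK-216 H1975 array 1 or 3, or SK-216 PC-9 array 2, adjusted p up to 0.166). That of BNIP3 was lost in 8 (without tolerant H1975 array 1 or 2, SK-216 H1975 array 1 or 2, tolerant PC-9 array 3, or any SK-216 PC-9 array, adjusted p up to 0.228). Without the variance trend the adjusted p was 0.161 for WDR45B and 0.211 for BNIP3, and with each line fitted alone it was 0.0597 and 0.0566.

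**Figure D5:**
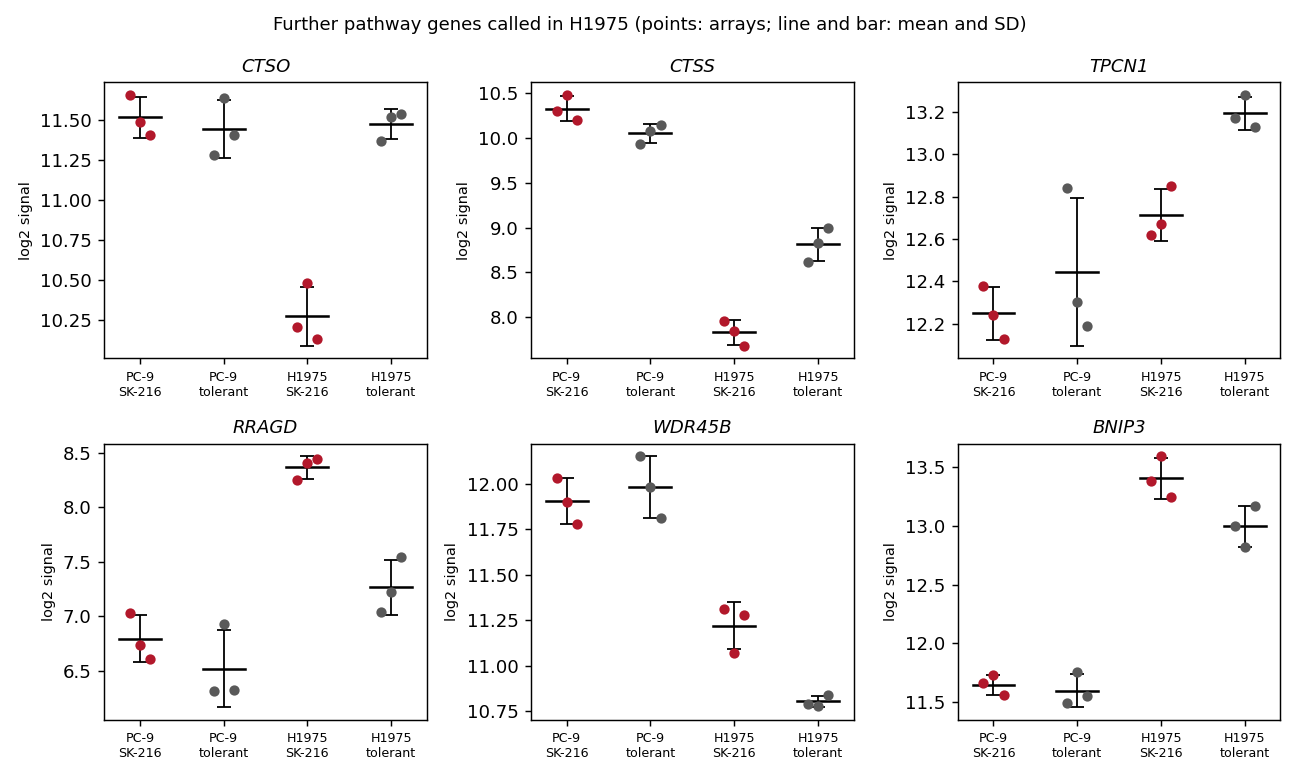
Log2 signal (vertical axis) on each array (points) in the 4 groups (horizontal axis), with the mean and SD of 3 arrays, for the 6 further pathway genes called with SK-216 in H1975. CTSO, CTSS and TPCN1 were lower and RRAGD, WDR45B and BNIP3 higher with SK-216 than in tolerant H1975.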

How the data were processed

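Total RNA of 12 samples (250 ng each) was measured on whole-transcript arrays with 1 colour. The deposited values, 1 per probe set and array, were taken as log2 signals from their range, 2.19 to 18.61. The submitters' processing notes name Transcriptome Analysis Console; for its version, its summarisation and its normalization, nothing is given in the sources used here. The log2 values were used as deposited (array medians 6.56 to 6.62). Precision is limited by the number of arrays, 3 per group. Platform symbols were updated by Entrez identifier through a RefSeq gene table; 3739 probe sets are unnamed here.

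Group means were fitted to all 12 arrays with limma 3.58.1 (R 4.3.3), with eBayes and a variance trend, no filter, and Benjamini-Hochberg adjustment over all 21448 probe sets; tests were two-sided. The script was tested on simulated data. Members, pathway lists, markers and tests were chosen with earlier results of these data known. The text names with values members called in an SK-216 comparison or in the difference between lines, TFEB, TFE3, LAMP1, SQSTM1, the 6 largest called line differences, and up to 4 called pathway genes of each list. WIPI1, ATP6V0B, LAMP2, CD14 and the remaining line differences given singly were picked after their values were seen. Replicate numbers are not stated to pair samples. Correlations of same-numbered deviations ran between -0.0912 and 0.0295, and those of different-numbered ones between -0.0374 and 0.0941. With 3 arrays per group these values cannot decide whether the numbers pair samples. Alternatives were eBayes without a trend, each line alone, a replicate block, a minimum change of 0.5, quantile normalization, median centring, robust eBayes, array weights, omission of the dimmest 30% of probe sets and omission of each array in turn. The line comparison among SK-216 arrays and leaving out probe sets at the olfactory mark were added after seeing the data. Promoter sequences are from RefSeq. Figures were drawn with matplotlib 3.10.9.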

Additional observations from a re-analysis of the deposited data

Results flagged for a closer look

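The difference between the SK-216 changes of the lines (PC-9 minus H1975) was tested by limma with adjustment over all probe sets. It passed for 2 of the 32 genes (6.25%) and for 2 of the 142 further pathway genes (1.41%). Of all probe sets 1.42% passed, and of those above the olfactory mark in at least 1 group 2.04%. ATP6V0D2 had a fitted difference of -1.65 ± 0.33 (adjusted p = 0.0083), with an increase called in H1975 and a PC-9 signal below the olfactory mark throughout. ATP6V1A differed by -0.48 ± 0.12 (adjusted p = 0.0334), a call lost in 11 of the 12 fits without 1 array. CTSO differed by 1.28 ± 0.18 (adjusted p = 0.00016) and CTSS by 1.26 ± 0.21 (adjusted p = 0.00132), both with a decrease called in H1975 and no call in PC-9.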

How the results depend on the processing

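Of the 32 genes, the number called with SK-216 in H1975, 3, was 1 without the variance trend or with a minimum change of 0.5, and 2 to 5 when 1 array was left out. The number in PC-9, 1, was 0 without the trend, with each line fitted alone and with the replicate number as a block, and 0 to 1 when 1 array was left out. The number for the difference between the lines' changes, 2, was 1 without the trend, with the replicate block and with a minimum change of 0.5, and 1 to 2 when 1 array was left out. The number between tolerant lines, 26, was 23 without the trend. Without the trend, 448 probe sets in all were called in H1975, against 814, 18 in PC-9, against 95, and 99 for the difference, against 304. With the replicate block 58 were called in PC-9, and the adjusted p was 0.0903 for GALC in PC-9, 0.0951 for the ATP6V1A difference and 0.0821 for BNIP3 in H1975, all called without it. The replicate numbers are not known to pair samples, and the block changed no other count of these genes. No block could be fitted for the comparison of lines, because each block lies within 1 line, and the fits of each line alone give no value for it or for the difference. The medians of the classes moved by more than their spread as follows. After quantile normalization the median difference between the lines' changes was 0.063 for hydrolases (0.13), -0.00014 for the pump (0.065) and -0.0125 for autophagy factors (0.08), and the median between tolerant lines was -0.14 for the pump (-0.19). When 1 array was left out, the median difference ran between 0.057 and 0.29 for hydrolases, between -0.0067 and 0.105 for the pump and between -0.005 and 0.15 for autophagy factors. The median between tolerant lines ran between -0.67 and -0.42, between -0.22 and -0.13, and between 0.27 and 0.40 in the same classes. The median SK-216 change of the pump ran between 0.086 and 0.17 in PC-9 and between 0.10 and 0.19 in H1975, and that of autophagy factors in H1975 between 0.068 and 0.21. Small uncalled changes turned their sign when 1 array was left out: MCOLN1 in H1975 (-0.063 to 0.087) and, in PC-9, LAMP1 (-0.12 to 0.055), CTSB (-0.12 to 0.02), TFE3 (-0.043 to 0.18), ATP6V0D2 (-0.11 to 0.27), ATP6V1C1 (-0.038 to 0.16), CTSO (-0.005 to 0.18), TPCN1 (-0.32 to 0.005), WDR45B (-0.16 to 0.0083) and BNIP3 (-0.005 to 0.13). The cause of these moves was not tested. Genes at the olfactory mark, TFEB and ATP6V0D2 outside SK-216 H1975, have signals too low to order.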
